A study of Mus musculus with 18 samples.

Results

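RNA of 7 secreted ligands was examined in Lgr5+ cells sorted from mouse intestinal crypts, namely the Wnt ligands *Wnt3*, *Wnt6* and *Wnt11*, the Hedgehog ligands *Ihh* and *Shh*, and the growth factors *Pdgfa* and *Vegfa*. They were taken by gene symbol from a table of 43346 genes, and each symbol had 1 row. The cells came from the small intestine (SI) and the large intestine (LI) of untreated C57BL/6 mice of 8 to 20 weeks with the genotype Lgr5_eGFP_Iris_creERT2, in which a knocked-in cassette places GFP and a tamoxifen-inducible Cre under the *Lgr5* locus, and this genotype was shared by all 6 groups. Live cells carrying the epithelial surface protein EPCAM were sorted by GFP level, with high, medium and low GFP standing for the crypt centre, the border and row >3. GFP reports *Lgr5* transcription, so position is read from a sort gate and not measured directly. Each combination of site and level had 3 libraries, which gave 18 libraries with between 8312093 and 31940965 counts. The study describes the libraries of a group as biological replicates from mice, and no source used here says whether a replicate number marks 1 mouse across groups. Its methods name the distal ileum and the cecum for crypts isolated for imaging, and tie no SI segment to these libraries.

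Wnt, Hedgehog, PDGF and VEGF proteins are signals that one cell secretes and a neighbour reads. In the crypt, Wnt ligands keep stem cells dividing and are supplied by Paneth cells, the granule-bearing cells of the SI crypt base, and by the stroma beneath the epithelium. Hedgehog ligands run the other way, from epithelium to mesenchyme, where the receptor Patched releases Smoothened and GLI factors turn on targets. PDGF-A binds PDGF receptor alpha on fibroblasts, and VEGF-A acts on endothelial cells and shapes the capillaries around crypts.

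The SI libraries of replicate 3 stood apart from the other SI libraries, and this touches every comparison of sites. Of genes that reached 20 CPM, a count scaled to the size of its library, in one site and differed at least 20-fold between the LI and SI replicate 1, those high in the LI had a median level in SI replicate 3 of 64.3% of the LI level in centre cells (47 genes), 84.7% in border cells (42 genes) and 79.7% in row >3 cells (30 genes). In SI replicate 2 the same medians were 1.63%, 1.38% and 1.09%. The genes high in SI replicate 1 had medians of 54.6%, 18.6% and 34.5% of that level in SI replicate 3, against 98.3%, 104% and 49.6% in SI replicate 2. Whether the 3 SI libraries of replicate 3 were mixed with or exchanged for LI or distal tissue was not tested, and their labels were kept. Calls of the 7 ligands that changed without these 3 libraries are therefore given both ways, and those of other genes where stated. The 3 libraries were singled out from these same data, by genes that differ between the sites, the 7 ligands left out. Leaving them out can by itself enlarge differences between the sites. Adjusted p from that fit are thus a description and not independent support. Summed normalised counts of 11 stromal markers were 35.7 to 431, of 6 endothelial markers 1.84 to 125 and of 9 immune markers 72.0 to 1601, against 65218 to 168926 for 7 epithelial markers. Summed normalised counts of 5 stem cell markers, *Lgr5* among them, were lower in row >3 than in centre cells of every replicate, from 106378, 102051 and 28899 to 6969, 12883 and 1161 in the SI and from 8330, 7304 and 7135 to 1614, 2254 and 1794 in the LI. *Olfm4* made up most of the SI centre sums, with 82369, 78758 and 17385, and had at most 79.4 in the LI. These sums therefore do not compare the sites. Markers of other epithelial cells were present in the gates and are given with *Wnt3* and *Ihh*, and in sorted pools of cells, fewer cells of a type and less RNA per cell cannot be told apart.

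The 7 ligands differed widely in level. Levels are normalised counts, the raw count divided by a size factor of its library. Per kilobase of exon, SI centre cells held most *Pdgfa*, with a mean normalised count of 664, followed by *Vegfa* with 428, *Ihh* with 120.2, *Wnt3* with 77.7, *Shh* with 11.03 and *Wnt6* with 2.24, while *Wnt11* had no count. Among neighbours in this order, *Vegfa* did not overlap with *Ihh*, nor *Wnt6* with *Wnt11*, and the others overlapped. The middle of the order rests on SI replicate 3: *Ihh* had 41.7, 52.0 and 267 per kilobase in replicates 1 to 3 against 78.2, 125 and 30.0 for *Wnt3*, and *Shh* had 33.1 in replicate 3 and no count in the others. In LI centre cells the order began with *Vegfa* at 417 and *Ihh* at 252, and *Pdgfa* followed at 59.2, *Shh* at 31.8, *Wnt3* at 6.42, *Wnt6* at 0.470 and *Wnt11* at 0.198. There *Pdgfa* overlapped with *Shh*, *Wnt3* with *Wnt6* and *Wnt6* with *Wnt11*, and the other neighbours did not overlap. In row >3 cells *Ihh* had the highest mean in both sites, with 328 in the SI and 405 in the LI, and *Vegfa* came next with 263 and 313. In the SI this rests on replicate 3: *Ihh* had 212, 175 and 597 per kilobase in replicates 1 to 3 and *Vegfa* 260, 198 and 331, so that *Vegfa* was the higher in replicates 1 and 2. The ranges of *Ihh* and *Vegfa* overlapped in both sites at that level.

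**Figure D1:**
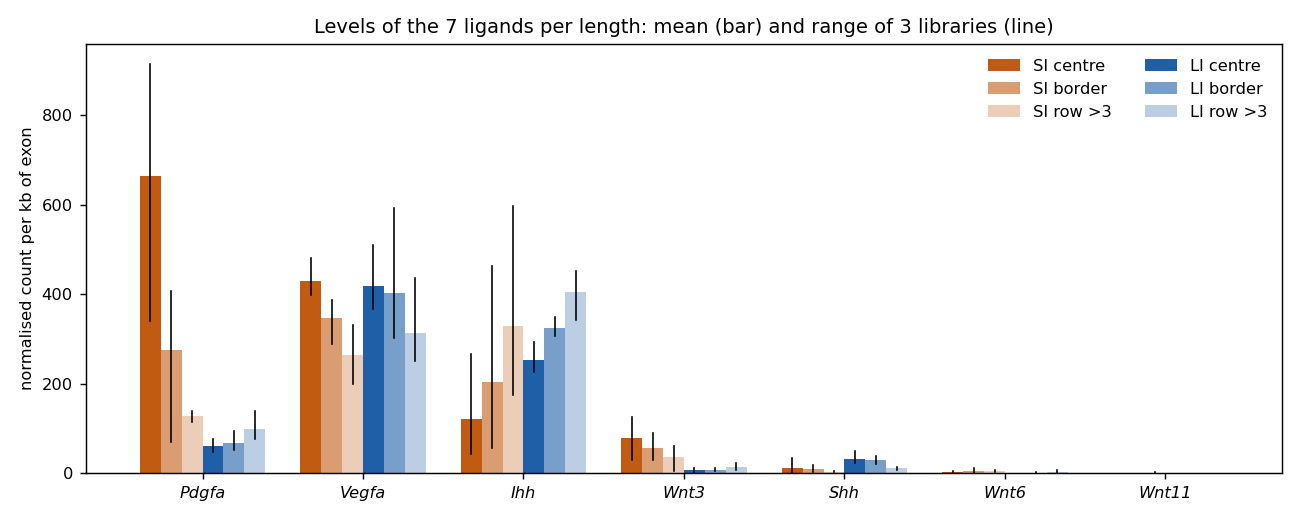
Mean level of the 7 ligands in the 6 groups, as normalised count per kilobase of exon on a linear axis that starts at 0, with bars for the mean and lines for the range of 3 libraries. *Pdgfa* leads in SI centre cells at 664, *Ihh* has the highest mean in row >3 cells of both sites at 328 and 405, in the SI through replicate 3 at 597, and *Wnt6* and *Wnt11* lie near 0 throughout.

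**Figure D2:**
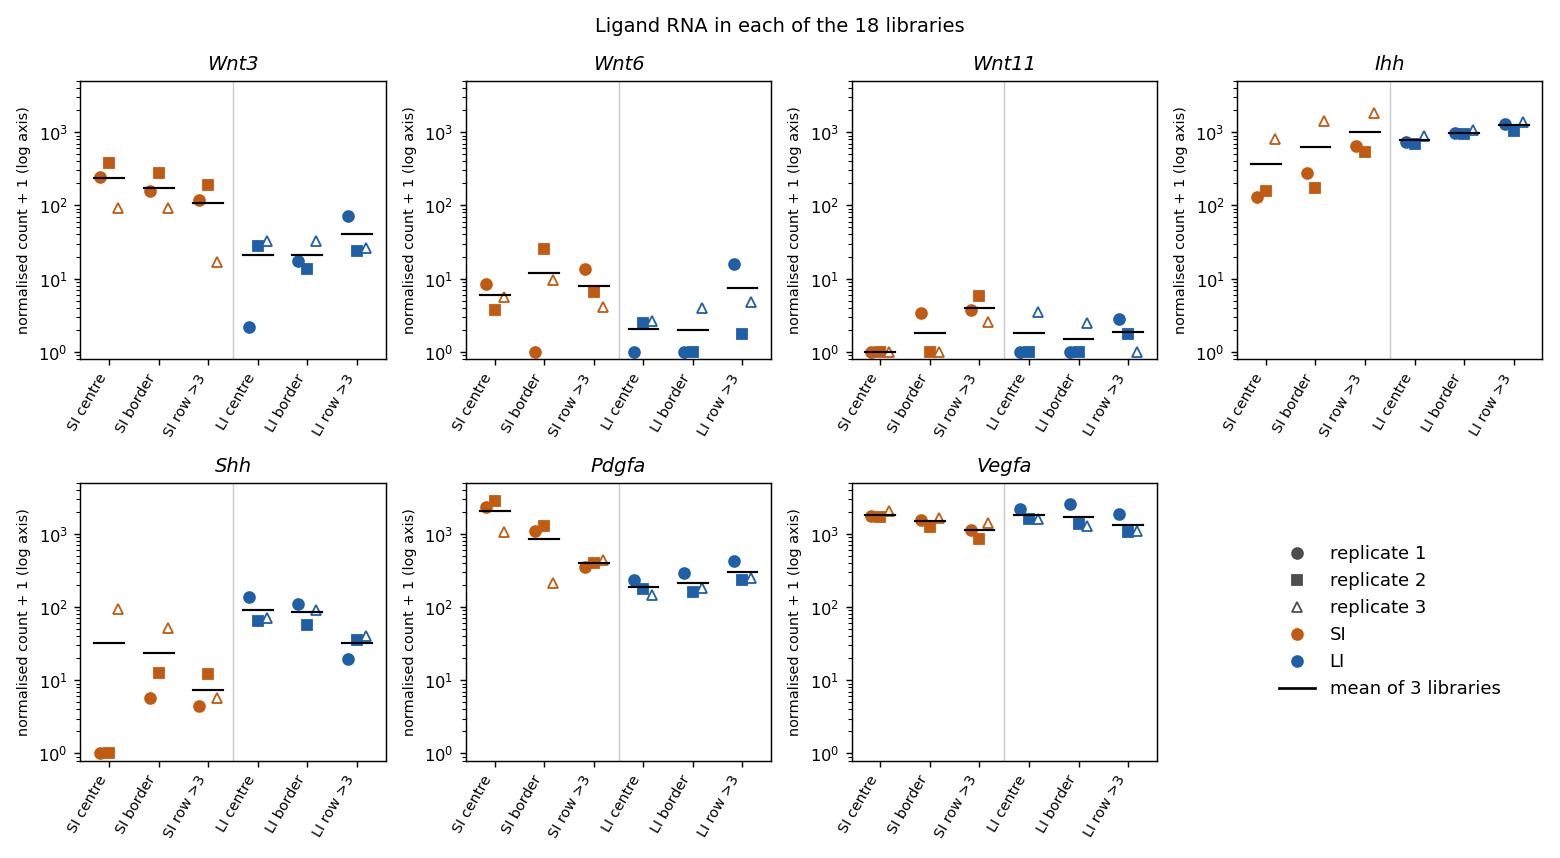
Normalised count plus 1, on a log axis, of each ligand in each of the 18 libraries, with SI in orange, LI in blue, open triangles for replicate 3 and a line for the mean of 3 libraries. *Wnt3* and *Pdgfa* are high in SI centre cells, *Ihh* is high in all LI libraries and in SI replicate 3, *Shh* in LI centre and border libraries and SI centre replicate 3, and *Vegfa* lies between 849.8 and 2536 in every library.

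*Wnt3*, the ligand that Paneth cells make (chr11:103774150-103817957, plus strand, GRCm38), was the one Wnt ligand of the 3 with an appreciable level. In SI centre cells its normalised counts were 241, 384 and 92.3 in replicates 1 to 3, and in LI centre cells they were 1.18, 27.0 and 31.1. All 3 SI libraries were above all 3 LI libraries. As SI over LI, the log2 fold change was 3.41 (SE 0.78), about 10.7-fold, with a p of 0.0304 in edgeR's quasi-likelihood test after Benjamini-Hochberg adjustment over 26717 genes. A gene is called where this adjusted p is under 0.05. The call was lost when SI centre replicate 1 or 2 or any LI centre library was left out, with adjusted p between 0.0894 and 0.119. In the fit without the SI libraries of replicate 3 it was 3.81 (adjusted p = 8.3e-06).

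In border cells *Wnt3* stood at 156, 272 and 90.5 in the SI and at 16.5, 12.5 and 31.3 in the LI. These groups did not overlap either, and the log2 fold change was 2.96 (SE 0.81), with an adjusted p of 0.0792. With the replicate number as a block shared by both sites it was 2.77 (adjusted p = 0.0298). That block assumes that numbers pair the sites, which is not known. Without the SI libraries of replicate 3 the log2 fold change was 3.33 (adjusted p = 0.000251). In row >3 cells the values were 116, 187 and 15.6 in the SI against 70.1, 22.8 and 25.5 in the LI, and the groups overlapped through SI replicate 3, the lowest of the 6. There the log2 fold change was 1.46 (SE 0.73, adjusted p = 0.364), and without the SI libraries of replicate 3 it was 1.95 (adjusted p = 0.00653).

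Within the SI, *Wnt3* was lower in row >3 than in centre cells of the same replicate number in 3 of 3 pairs. Its log2 fold change was -1.09 (SE 0.65, adjusted p = 0.356), and with the replicate block within site it was -1.14 (adjusted p = 0.0138). In the LI, the level was higher in row >3 than in centre cells in replicate 1, from 1.18 to 70.1, and lower in replicates 2 and 3, and the log2 fold change was 0.86 (SE 0.87, adjusted p = 0.969). The difference between the sites in this step was -1.96 (SE 1.08, adjusted p = 0.836).

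Paneth cell markers were present in all SI libraries. The summed normalised count of 11 markers was 45697, 217250 and 50377 in SI centre cells of replicates 1 to 3, 89675, 161062 and 13703 in border cells, and 82430, 122241 and 5087 in row >3 cells. In the LI it was between 0 and 245. Of the SI libraries of a level, replicate 2 was highest for both *Wnt3* and the marker sum at all 3 levels. In replicate 1 the sum was higher in row >3 than in centre cells while *Wnt3* was lower. In 9 of 9 LI libraries *Wnt3* had counts, with marker sums between 0 and 245. The part of Paneth cells in the SI level was not tested.

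*Wnt6* (chr1:74771892-74785322, plus strand) had between 0 and 24.6 normalised counts in any library. In SI centre cells it had 7.29, 2.76 and 4.66, above the 0, 1.46 and 1.64 of LI centre cells. These rest on 17 counts in the SI and 4 in the LI, and the log2 fold change was 1.95 (SE 1.37, adjusted p = 0.579). In border cells the values were 0, 24.6 and 8.42 in the SI and 0, 0 and 2.98 in the LI. The groups overlapped, and the log2 fold change was 3.17 (SE 1.23, adjusted p = 0.214). With single libraries left out it ranged from 2.07, without SI border replicate 2, to 6.68, without LI border replicate 3, where no LI border count remained. In row >3 cells, 12.3, 5.53 and 3.12 in the SI overlapped with 14.6, 0.759 and 3.77 in the LI.

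*Wnt11* (chr7:98835112-98855195, plus strand), a ligand best known for signalling without beta-catenin, was close to the limit of detection. SI row >3 cells had 4, 6 and 1 counts in replicates 1 to 3, and SI centre cells had none in any library. SI border cells had 1 count in all, and the LI groups had 3, 2 and 3 counts in all from centre to row >3. Its promoter was the one member promoter with a match to ATCAAAG, the letters bound by TCF/LEF factors that act in Wnt signalling. Searched on both strands from 250 bases before to 50 after each start, these letters occur in 3.73% of 32851 RefSeq promoters of GRCm38.p6, and ACGTG, the core of the hypoxia response element, in 19.6%. These 2 matches do not overlap. In the sequence of *Wnt11* upstream of its first start (chr7:98834862-98835111, plus strand), shown for these matches, capitals mark ACGTG at position -61 and ATCAAAG at -51 from the start.

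Wnt11: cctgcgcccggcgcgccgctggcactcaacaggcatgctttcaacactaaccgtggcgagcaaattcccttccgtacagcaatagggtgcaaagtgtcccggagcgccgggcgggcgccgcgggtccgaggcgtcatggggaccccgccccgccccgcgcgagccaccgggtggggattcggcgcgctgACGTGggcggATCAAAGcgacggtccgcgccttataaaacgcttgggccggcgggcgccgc

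The upstream sequences of 3 ligands called between the sites, with or without the SI libraries of replicate 3, are shown for comparison, all from RefSeq on GRCm38.p6, read 5′ to 3′ on the strand of the gene and outside annotated exons. They are *Wnt3* (chr11:103773925-103774149, plus strand), *Ihh* (chr1:74951673-74951922, minus strand) and the second start of *Pdgfa* (chr5:138995038-138995194, minus strand). The shares of G and C were 68.9%, 72.0% and 72.0%, and none of their promoters held the letters of TCF/LEF factors or of the hypoxia response. Nor did they hold TTTATG, the letters of the intestinal CDX factors, which occur in 11.9% of promoters. Promoters were matched for 6 of the 7 ligands, all but *Shh*, with 9 starts in all, and the other match was ACGTG in reverse at -211 from the second start of *Vegfa*.

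Wnt3: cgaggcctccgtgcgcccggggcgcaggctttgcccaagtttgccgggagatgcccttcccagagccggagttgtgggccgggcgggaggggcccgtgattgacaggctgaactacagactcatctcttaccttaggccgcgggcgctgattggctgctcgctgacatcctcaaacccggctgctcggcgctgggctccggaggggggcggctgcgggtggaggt
Ihh: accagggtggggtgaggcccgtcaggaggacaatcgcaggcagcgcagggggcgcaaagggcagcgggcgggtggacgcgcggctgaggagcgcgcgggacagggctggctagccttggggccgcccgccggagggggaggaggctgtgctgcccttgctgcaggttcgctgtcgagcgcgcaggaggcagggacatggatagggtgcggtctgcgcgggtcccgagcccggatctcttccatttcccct
Pdgfa: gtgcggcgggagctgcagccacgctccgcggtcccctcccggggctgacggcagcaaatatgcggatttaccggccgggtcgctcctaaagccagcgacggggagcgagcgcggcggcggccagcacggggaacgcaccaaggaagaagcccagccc

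Of 16 other Wnt genes, 13 had counts and were tested, and *Wnt5a* had the highest mean of them in each LI group. *Wnt5a*, a ligand that mainly signals without beta-catenin, had 202, 135 and 179 normalised counts in LI centre cells and 10.5, 0.921 and 92.3 in SI centre cells. It was lower in the SI at all 3 levels, with log2 fold changes of -2.38 in centre (adjusted p = 0.0498), -3.71 in border (adjusted p = 0.0175) and -3.17 in row >3 cells (adjusted p = 0.00963). RLE factors, DESeq2's scaling, ended the call for centre cells (adjusted p = 0.0518), and leaving out single libraries did so in 5 of 6 fits for centre, 4 of 6 for border and 2 of 6 for row >3 cells, and in the fit without the SI libraries of replicate 3 the values were -4.81, -3.41 and -3.34, all called. It was the 1 of 13 called in each of these comparisons, where 1.99%, 1.76% and 4.09% of all genes were called. *Wnt5b* fell from centre to row >3 in the SI, by 3.38 on the log2 scale (adjusted p = 0.0304), from 31.6, 40.5 and 13.99 to 0, 7.11 and 0 normalised counts. With so few counts the size of the change depended on single libraries, and it was -2.61 without SI row >3 replicate 1, while without replicate 2 no count remained in row >3 cells. It was the 1 of 13 called, where 13.2% of all genes were, and the call was lost in DESeq2 (adjusted p = 0.0852) and in 4 of 6 fits that left out a library.

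Of 12 genes for Wnt export and removal, 11 were tested and 2 were called between SI and LI centre cells, where 1.99% of all genes were. *Sfrp5*, which encodes a secreted protein that binds Wnt, had 430, 347 and 106 normalised counts in SI centre cells and 1.18, 2.19 and 2.45 in LI centre cells. The difference was 7.04 on the log2 scale (SE 0.87, adjusted p = 3.44e-05), and it was 7.97 in border cells (adjusted p = 9.61e-05) and 4.14 in row >3 cells (SE 1.28, adjusted p = 0.0656). Without the SI libraries of replicate 3 the difference in row >3 cells was 4.57 (adjusted p = 0.000281). From SI centre to row >3 *Sfrp5* fell by 3.66 (adjusted p = 0.000199). In that step 2 of 11 were called, where 13.2% of all genes were, and the other was *Trabd2b*, a membrane protease that cleaves Wnt proteins, with 8.91, 11.97 and 9.33 in centre and no count in row >3 cells (adjusted p = 0.0319, lost in 5 of 6 fits that left out a library and, with an adjusted p of 0.0618, in the fit without the SI libraries of replicate 3). The other member called in centre cells was *Gpc6*, a glypican of the cell surface, with 0.810, 0 and 0 in the SI and 71.7, 40.8 and 31.9 in the LI (adjusted p = 0.00588). In border cells, too, *Sfrp5* and *Gpc6* were the 2 of 11 called, where 1.76% of all genes were, and the call of *Gpc6* (adjusted p = 0.0240) was lost in 5 of 6 fits that left out a library. *Wls*, the carrier that takes Wnt proteins to the cell surface, had between 545 and 1468 normalised counts in all libraries and was lower in SI than LI row >3 cells with a log2 fold change of -0.87 (adjusted p = 0.0207), a call lost in 4 of 6 fits that left out a library. Without the SI libraries of replicate 3 it was -0.98 (adjusted p = 0.00209). In border cells *Wls* was at -0.74 (adjusted p = 0.0842) over all libraries and at -0.81 (adjusted p = 0.0197) without those of SI replicate 3. *Porcn*, the acyltransferase that readies Wnt proteins for export, had at most 48.6.

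*Ihh* (chr1:74945315-74951672, minus strand), which encodes Indian hedgehog, the main Hedgehog ligand of the gut epithelium, was higher at each step from centre to row >3 in every replicate. In the LI its normalised counts were 726, 688 and 894 in centre, 968, 932 and 1066 in border and 1275, 1045 and 1379 in row >3 cells. In the SI they were 127, 158 and 813 in centre, 279, 172 and 1413 in border and 646, 533 and 1820.2 in row >3 cells. Within each replicate number, border was above centre and row >3 above border in 6 of 6 series over both sites. LI centre and border cells did not overlap, nor did LI centre and row >3 cells, while the SI groups overlapped because replicate 3 was high throughout.

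From centre to row >3, the log2 fold change of *Ihh* was 1.45 (SE 0.82) in the SI and 0.68 (SE 0.79) in the LI, with adjusted p of 0.336 and 0.969 in edgeR's quasi-likelihood test. With the replicate block within site, the values were 1.72 (SE 0.20, adjusted p = 2.77e-06) and 0.68 (SE 0.17, adjusted p = 0.0402). With the block, the step from border to row >3 in the SI was 0.99 (adjusted p = 0.00317), against 0.64 (SE 0.80, adjusted p = 0.889) without it. The step from centre to row >3 was larger in the SI than in the LI by 1.04 with the block (SE 0.26, adjusted p = 0.0417), against 0.76 (SE 1.13, unadjusted p = 0.511) without it. With the SI libraries of replicate 3 left out, the steps from centre to row >3 were 2.06 in the SI (adjusted p = 1.52e-06) and 0.67 in the LI (adjusted p = 0.0440), and their difference was 1.39 (adjusted p = 0.00736). That fit gave 1.48 (adjusted p = 0.000646) from SI border to row >3, while leaving out SI row >3 replicate 3 alone turned this step to -0.084.

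**Figure D3:**
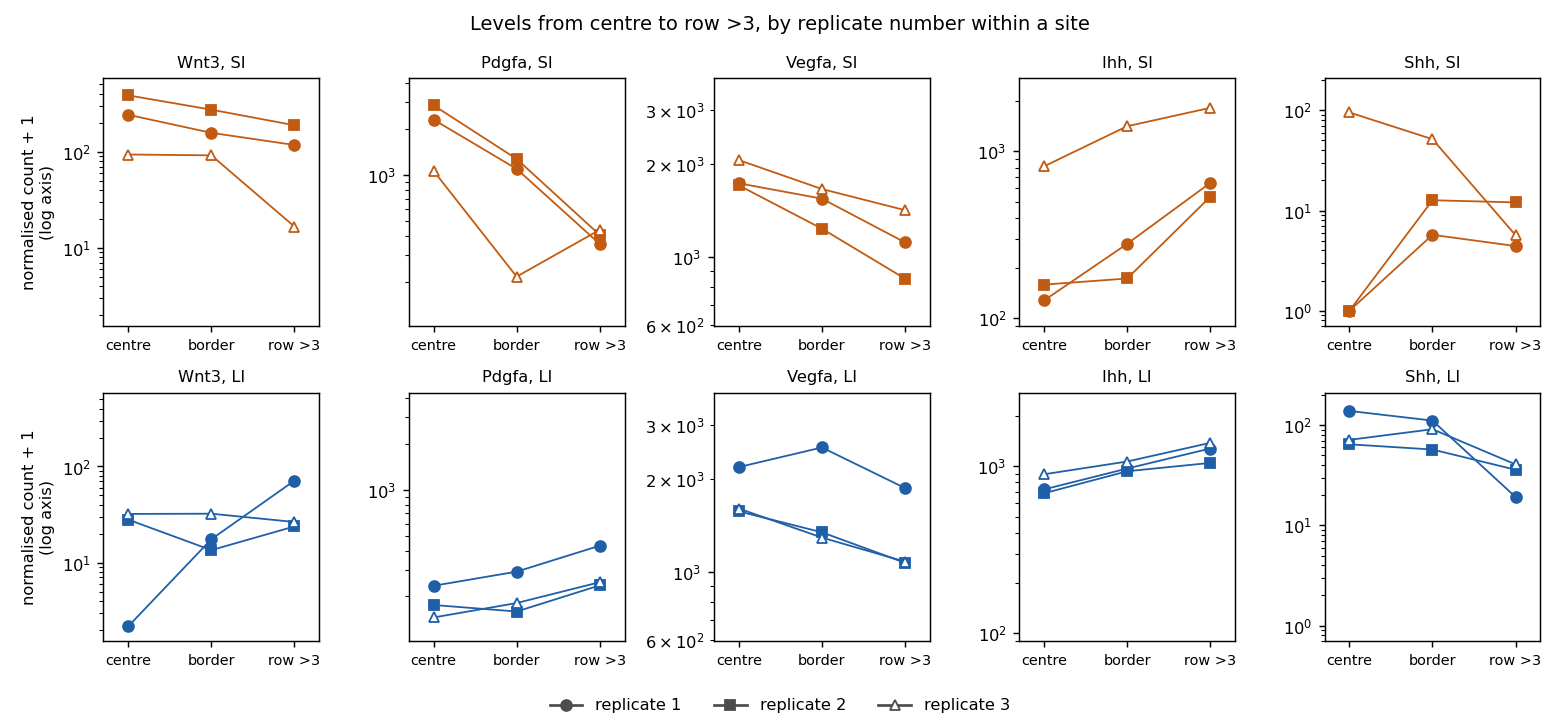
Normalised count plus 1, on a log axis, of 5 ligands from centre over border to row >3, with a line for each replicate number, SI above and LI below. *Ihh* is higher at each step along all 6 lines, *Vegfa* is lower in row >3 than in centre on all 6, and *Pdgfa* is lower at row >3 than at centre on the 3 SI lines and higher at row >3 on the 3 LI lines.

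Summed levels of goblet and absorptive cell markers were also higher in row >3 than in centre cells of every replicate. Those of enteroendocrine cells were higher in all but LI replicate 1, and those of tuft cells only in SI replicates 1 and 2. Summed normalised counts of 8 goblet and deep crypt secretory markers were 181889, 169233 and 285728 in LI centre cells and 562967, 356694 and 530947 in LI row >3 cells. In the SI they went from 15853, 28506 and 241565 in centre to 1065520, 756301 and 704997 in row >3 cells, with SI centre replicate 3 at the LI level for these markers as for *Ihh*. Of these 8 markers, 5 were called as higher in SI row >3 than in centre cells and 1, *Clca1*, as lower, from 1036, 991 and 660 to 285, 253 and 101. Those of 10 absorptive markers went from 4940, 6191 and 7472 to 20013, 25624 and 32660 in the LI and from 5637, 1937 and 6838 to 39213, 15501 and 67481 in the SI. Those of 5 tuft cell markers went from 528, 684 and 7704 to 6428, 7001 and 1613 in the SI and from 4221, 3152 and 2566 to 2669, 2555 and 2352 in the LI, where they were lower in row >3 cells of all 3 replicates. Those of 6 enteroendocrine markers went from 925, 5846 and 373 to 8087, 12102 and 1717 in the SI and from 3175, 4420.0 and 5286 to 2472, 4579 and 5999 in the LI. *Car1* made up most of the absorptive sum in LI row >3 cells, with 15895, 21055 and 26486.5. It did so in SI row >3 replicate 3 with 38981, against 59.5 and 215 in replicates 1 and 2. Of the absorptive markers, 4 of 10 were called as higher in SI row >3 than in centre cells, where 1963 of 26717 genes were. From LI centre to row >3, 0 of 8 goblet and 0 of 10 absorptive markers were called, where 0.0187% of all genes were. The part of goblet, absorptive, tuft and enteroendocrine cells in the *Ihh* gradient was not tested.

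Between the sites, *Ihh* in SI replicates 1 and 2 was below all LI libraries at every level, and in SI replicate 3 it was within or above the LI range. Over all libraries its log2 fold change between the sites was -1.12 (SE 0.81) for centre, -0.68 (SE 0.80) for border and -0.36 (SE 0.79) for row >3 cells, with adjusted p of 0.608, 0.852 and 0.923. When the SI libraries of replicate 3 were left out, these became -2.46, -2.23 and -1.07, with adjusted p of 4.76e-08, 4.78e-07 and 0.000471. The means then stood at 143 in SI and 769 in LI centre cells, which is 5.39-fold, and at 590 and 1233 in row >3 cells, which is 2.09-fold.

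*Shh* (chr5:28456815-28467256, minus strand), the second Hedgehog ligand, was far lower than *Ihh* and in the LI its order over the levels was the opposite. Its normalised counts there were 138, 63.4 and 70.3 in centre, 110.1, 56.1 and 90.1 in border and 18.2, 34.9 and 39.6 in row >3 cells. The row >3 libraries were below all centre and border libraries. Its log2 fold change from centre to row >3 was -1.50 (SE 0.84, adjusted p = 0.7998), against -1.48 (SE 0.41, adjusted p = 0.0646) without the SI libraries of replicate 3, which enter the shared estimate of the spread.

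In the SI, *Shh* had no count in centre replicates 1 and 2 and 101 counts, or 94.2 normalised, in replicate 3. Border cells had 4.72, 11.7 and 50.5 and row >3 cells 3.42, 11.1 and 4.68. All SI border libraries were below all LI border libraries, and all SI row >3 libraries below all LI row >3 libraries. Between the sites its log2 fold change was -1.58 (SE 0.84) for centre, -1.78 (SE 0.93) for border and -2.29 (SE 1.21) for row >3 cells, with adjusted p of 0.425, 0.424 and 0.395. In the fit without the SI libraries of replicate 3, the value for border cells was -3.27 (adjusted p = 0.00575) and for row >3 cells -2.14 (adjusted p = 0.0584). In centre cells that fit called *Shh* as lower in the SI (adjusted p = 2.18e-05 in edgeR's quasi-likelihood test), with no count in both remaining SI libraries. Set against a floor of 3 counts over these libraries, the LI mean was 69.9-fold higher, a ratio that carries no test. *Shh* overlaps the antisense RNAs 9530036O11Rik and Gm26894, which reached 2.38 and 2.52 CPM, and the strand used in counting is not given, so their reads may not be separable.

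The sorted cells held RNA of the Hedgehog receptors, while the GLI factors and mesenchymal targets of the pathway were at or near 0. Of 18 other pathway genes, 14 had counts. *Ptch1*, the Hedgehog receptor and itself a target in responding cells, had between 365 and 1083 normalised counts, and *Smo*, the transducer it holds in check, between 260 and 998. *Gli1* had 0.759 in 1 library and 0 in the other 17, and *Gli2*, *Gli3*, *Foxf1* and *Foxl1* had 0 in all 18. *Hhip*, a secreted Hedgehog antagonist, had at most 0.921.

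*Ptch1* and *Smo* were lower in row >3 cells, where *Ihh* was higher. *Smo* fell from 998, 931 and 783 in SI centre to 260, 299 and 370 in row >3 cells, a log2 fold change of -1.55 (SE 0.20, adjusted p = 4.48e-05). *Ptch1* fell from 1083, 891 and 844 to 418, 402 and 365, by 1.24 (SE 0.18, adjusted p = 0.000126). These were the 2 of 14 called, where 13.2% of all genes were, and both calls held in 12 of 12 alternatives. From border to row >3 the same 2 of 14 were called, where 1.61% of all genes were, with log2 fold changes of -1.05 for *Smo* (adjusted p = 0.0118) and -0.73 for *Ptch1* (adjusted p = 0.0453), lost in 2 of 6 and 5 of 6 fits that left out a library. The call of *Ptch1* was also lost with RLE factors (adjusted p = 0.0511) and with library size scaling (adjusted p = 0.0673). From LI centre to row >3 none of the 14 was called, where 0.0187% of all genes were, with log2 fold changes of -0.68 for *Smo* (unadjusted p = 0.00163) and -0.38 for *Ptch1* (unadjusted p = 0.0465) in edgeR. In the fit without the SI libraries of replicate 3 the LI value of *Smo* was -0.69 (adjusted p = 0.0204), and its step was more negative in the SI than in the LI by -1.09 (adjusted p = 0.0125), against -0.87 (SE 0.27, adjusted p = 0.383) over all libraries. Of the 14, *Smo* was lower in SI than LI row >3 cells (-1.01, adjusted p = 0.00328), and *Cdon*, a co-receptor, was higher (0.92, adjusted p = 0.0220), where 4.09% of all genes were called. Leaving out single libraries ended the call of *Smo* in 1 of 6 fits, without SI row >3 replicate 1 (adjusted p = 0.0529), and that of *Cdon* in 4 of 6. The call of *Cdon* was also lost with library size scaling (adjusted p = 0.0615). Without the SI libraries of replicate 3, *Boc*, another co-receptor, was also called as lower in the SI at all 3 levels, with log2 fold changes of -1.14, -1.54 and -1.99. Over all libraries these were -0.74, -0.98 and -1.48, with adjusted p of 0.453, 0.301 and 0.0704. From SI centre to row >3, *Boc* was at -1.23 (adjusted p = 0.0756) over all libraries and at -1.35 (adjusted p = 0.000583) without those of SI replicate 3.

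*Pdgfa* (chr5:138976014-138997370, minus strand) was called in edgeR over all libraries both between the sites and along the SI crypt, as no other of the 7 was, while in the fit without the SI libraries of replicate 3 this also held for *Ihh*. In SI centre cells it had 2298, 2851 and 1060.3 normalised counts, and in LI centre cells 234, 175 and 145. All SI libraries were above all LI libraries, with a log2 fold change of 3.44 (SE 0.54), or about 10.8-fold, and an adjusted p of 0.00515. It stayed called in 12 of 12 alternatives, with log2 fold changes between 3.14 and 3.80 and adjusted p up to 0.0448. In border cells the values were 1093, 1270.2 and 215 in the SI and 289.8, 158 and 180.1 in the LI, and the groups overlapped through SI replicate 3. There its log2 fold change was 1.95 (SE 0.52, adjusted p = 0.0821). It was 1.81 (adjusted p = 0.0449) with the replicate block shared by both sites, a pairing that is not known. Without the SI libraries of replicate 3 it was 2.45 (adjusted p = 4.44e-07). In row >3 cells, 352, 404 and 436 in the SI overlapped with 429, 235 and 247 in the LI, with a log2 fold change of 0.33 (95% interval -0.75 to 1.42).

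**Figure D4:**
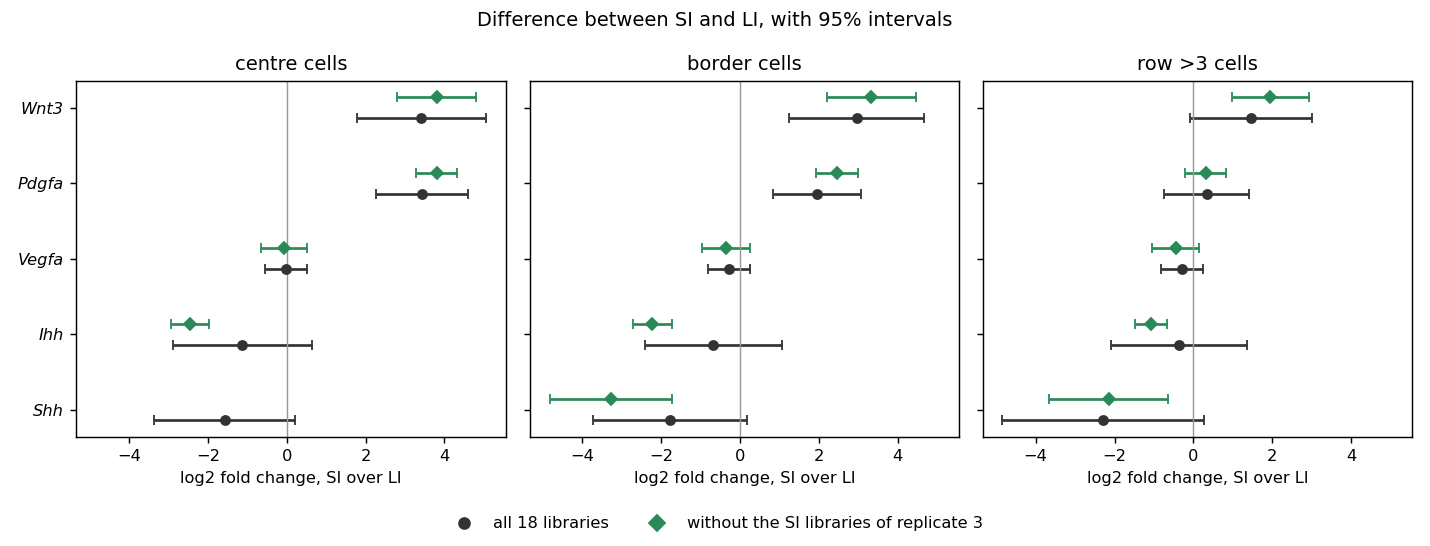
Log2 fold change of SI over LI with its 95% interval from edgeR, for 5 ligands at the 3 levels, from all 18 libraries (dark circles) and without the SI libraries of replicate 3 (green diamonds). *Pdgfa* goes from 3.44 in centre to 0.33 in row >3 cells, and the interval of *Ihh* excludes 0 at all 3 levels only in the fit without these libraries. *Shh* in centre cells is drawn from all libraries alone, since both other SI libraries had no count.

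Along the SI crypt *Pdgfa* was lower in row >3 than in centre cells of all 3 replicates, and the centre libraries were all above the row >3 libraries. From centre to row >3 the log2 fold change was -2.38 (SE 0.52), about 5.20-fold, with an adjusted p of 0.00698, and this call too held in 12 of 12 alternatives. From centre to border it was -1.30 (SE 0.50, adjusted p = 0.438), and -1.15 (adjusted p = 0.0292) without the SI libraries of replicate 3. From border to row >3 it was -1.08 (SE 0.50, adjusted p = 0.372), lower in replicates 1 and 2 and higher in replicate 3, from 215 to 436, and without those libraries it was -1.62 (adjusted p = 0.000678). In the LI the order was the other way round. Centre cells had 234, 175 and 145, border cells 289.8, 158 and 180.1, and row >3 cells 429, 235 and 247. Row >3 was above centre in 3 of 3 replicates, and all its libraries were above all centre libraries, with a log2 fold change of 0.73 (SE 0.52, adjusted p = 0.915).

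The difference between the sites in the step from centre to row >3 was -3.11 (SE 0.73), with an adjusted p of 0.218 in edgeR's quasi-likelihood test over all libraries. DESeq2 gave -3.10 (adjusted p = 0.00202), the replicate block within site -3.01 (adjusted p = 0.0227), and the fit without the SI libraries of replicate 3 -3.49 (adjusted p = 7.16e-06). With the fit without SI centre replicate 3 (adjusted p = 0.0380), these were the 4 of 18 alternatives that called it, and 1 of 12 fits that left out a library did, with adjusted p up to 0.727. The stem cell marker sums given above were lower in row >3 than in centre cells of both sites and the goblet and absorptive sums higher, and Paneth marker sums were at most 245 in the LI. Their part in the levels of *Pdgfa* was not tested. Part of *Pdgfa* overlaps exons of the antisense RNA 6330403L08Rik, which reached 15.1 CPM in its highest library. The deposited counts do not say how such reads were assigned.

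*Pdgfra*, the receptor of PDGF-A, had at most 12.8 normalised counts and 0 in 12 of 18 libraries. *Pdgfrb*, the other PDGF receptor and one of the stromal markers summed above, had between 31.6 and 211, with 148, 94.8 and 211 in SI row >3 cells. *Pdgfb* rose from centre to row >3 in the SI, from 1.62, 21.2 and 7.46 to 53.3, 62.4 and 4.68, by a log2 fold change of 2.15 (SE 0.68, adjusted p = 0.0333), the 1 of 6 called in that step, where 13.2% of all genes were. It was higher in row >3 cells of replicates 1 and 2 and lower in those of replicate 3. The call was lost in DESeq2 (adjusted p = 0.155), with library size scaling and in 4 of 6 fits that left out a library. *Pdgfd* had 51.8, 75.8 and 87.5 in LI centre cells against 4.05, 3.68 and 83.9 in the SI, with SI replicate 3 again at the LI level, and its log2 fold change was -1.34 (adjusted p = 0.531) over all libraries and -4.22 (adjusted p = 0.000240) without those 3.

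*Vegfa* (chr17:46016993-46032369, minus strand) was high in all groups, and no difference between the sites passed the test. In centre cells the SI had 1735, 1708 and 2065 and the LI 2190.1, 1571 and 1605 normalised counts, with a log2 fold change of -0.01 (95% interval -0.54 to 0.51). In border cells 1547, 1235 and 1662 stood against 2536, 1344 and 1292, with a log2 fold change of -0.27 (95% interval -0.80 to 0.26). In row >3 cells 1115, 849.8 and 1419 stood against 1872, 1069.7 and 1079, with a log2 fold change of -0.30 (95% interval -0.83 to 0.23). The sites overlapped at all 3 levels, and LI replicate 1 was the highest LI library at each.

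Along the crypt, *Vegfa* was lower in row >3 than in centre cells in 6 of 6 replicate series. In the SI all centre libraries were above all border and all row >3 libraries. Its log2 fold change from centre to row >3 was -0.70 (SE 0.26, adjusted p = 0.0788) in the SI and -0.41 (SE 0.25, adjusted p = 0.846) in the LI. With the replicate block within site the SI value was -0.73 (SE 0.12, adjusted p = 0.000165). The difference between the sites in this step was -0.29 (95% interval -1.04 to 0.46).

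The VEGF receptors that define endothelium were nearly absent: *Kdr* had at most 4.70, *Flt1* at most 9.33 and *Flt4* 0 normalised counts. *Nrp1*, a co-receptor of VEGF-A, fell in the SI from 143, 134 and 77.4 in centre to 35.6, 18.2 and 73.4 in row >3 cells, by 1.60 on the log2 scale (SE 0.47, adjusted p = 0.0250), the 1 of 8 family members called in that step, where 13.2% of all genes were. Its call was lost in 4 of 6 fits that left out a library, each time replicate 1 or 2. *Nrp2* is named here after its values were seen: it had 2501, 1747 and 2094 normalised counts in LI centre cells and 6.48, 65.4 and 1519 in SI centre cells. Over all libraries its log2 fold change was -2.04 (adjusted p = 0.643), and without the SI libraries of replicate 3 it was -5.95 (adjusted p = 8.33e-08).

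*Vegfa* is a well-known target of hypoxia-inducible factors, so a list of 12 genes of the hypoxia response was read beside it. From centre to row >3 in the SI, 3 of 12 were called, all as higher, where 13.2% of all genes were called in either direction and 1963 of 26717 as higher. They were the glucose transporter *Slc2a1* (1.41, adjusted p = 0.000291), the lactate dehydrogenase *Ldha* (1.11, adjusted p = 0.000466) and the oxygen sensor *Egln3* (2.42, adjusted p = 0.00545). These 3 calls held in 12 of 12 alternatives. The median log2 fold change of the list was 1.51, against 0 over all genes, while *Vegfa* was at -0.70. Between SI and LI centre cells *Slc2a1* (-1.35, adjusted p = 0.00222) and the vasodilator peptide gene *Adm* (-3.21, adjusted p = 0.0250) were lower in the SI, and leaving out single libraries ended the call of *Adm* in 3 of 6 fits. *Adm* was also lower in SI border cells (-3.89, adjusted p = 0.0289), a call lost in 5 of 6. *Pfkfb3*, which encodes a regulator of glycolysis, was higher in the SI in border (2.42, adjusted p = 0.0443) and row >3 cells (2.96, adjusted p = 0.00908), calls lost in 4 of 6 and 3 of 6 fits that left out a library, and the glycolytic gene *Pgk1* was lower in SI row >3 cells (-0.63, adjusted p = 0.0276, lost in 4 of 6). The border call of *Pfkfb3* was also lost with library size scaling (adjusted p = 0.0539). When the SI libraries of replicate 3 were left out, 7 of 12 rose and 1 fell from centre to row >3 in the SI. Of 26181 genes, 4465 were called there, 2610 as higher and 1855 as lower.

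Counted over the 7 ligands, all of which had a mean count above 0 and were tested, 2 were called between SI and LI centre cells, both higher in the SI. Of 26717 genes 1.99% were called there in either direction, 317 genes as higher in the SI. Between border cells 0 were called, against 1.76% of all genes, with 3 at an unadjusted p under 0.05, as were 3708 of 26717 genes, and 2 by DESeq2, which called 1212 genes. Between row >3 cells 0 were called, against 4.09%, with 0 at an unadjusted p under 0.05, as were 4195 genes, and 0 by DESeq2, which called 1682 genes. In the 11 comparisons DESeq2 gave no adjusted p for 1 to 3 of the 7 members, and none for *Ihh* in any, so its counts of members leave these out. In the fit without the SI libraries of replicate 3 the counts were 4, 4 and 2, where 2854, 2122 and 3184 of 26181 genes were called, and with the replicate block over all libraries 2 were called between border cells, where 1142 of 26717 genes were. Libraries of the sites did not overlap for 3 members higher in SI centre cells, *Pdgfa*, *Wnt3* and *Wnt6*, where the share over all genes was 9.59%, and for none lower there (8.65%). In border cells 1 was higher (*Wnt3*, 7.34% of genes) and 1 lower (*Shh*, 7.62%), and in row >3 cells 1 was lower (*Shh*, 7.34%) and none higher (10.2%).

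Along the SI crypt 1 of the 7 was called from centre to row >3, *Pdgfa*, where 13.2% of all genes were called, and 3 passed an unadjusted p under 0.05, as did 6395 of 26717 genes. With the replicate block within site, *Wnt3*, *Ihh*, *Pdgfa* and *Vegfa* were called, where 6103 of 26717 genes were. From centre to border and from border to row >3, 0 were called, against 0.0112% and 1.61% of genes, with 1 and 0 at an unadjusted p under 0.05 and 0 by DESeq2 in both. Over all genes 2399 and 3632 were at an unadjusted p under 0.05. Libraries did not overlap for *Pdgfa* and *Vegfa*, lower in row >3 than in centre cells (12.1% of genes), for *Wnt11*, higher (12.8%), and for *Vegfa*, lower in border than in centre cells (4.6%). None was higher in border than in centre cells (4.15%), and none differed in this way between border and row >3 cells (7.74% higher and 5.11% lower). In the LI, edgeR called 0 of the 7 in the steps from centre to border, centre to row >3 and border to row >3, against 0%, 0.0187% and 0% of genes, with 0 at an unadjusted p under 0.05 and 0 by DESeq2. Over all genes 368, 1860 and 994 were at an unadjusted p under 0.05. Non-overlapping libraries were seen for *Ihh*, higher in border than in centre cells (2.89% of genes, against 2.71% lower), *Ihh* and *Pdgfa* higher (7.57%) and *Shh* lower (7.18%) in row >3 than in centre cells, and *Shh* lower in row >3 than in border cells (5.4%, against 5.39% higher). The 2 comparisons of these steps between the sites called 0 members and 0% of genes, with 0 and 1 at an unadjusted p under 0.05 and 0 and 1 by DESeq2. Over all genes 707 and 1800 were at an unadjusted p under 0.05. The replicate block within site called 1 member from border to row >3 in the SI and 1 from centre to row >3 in the LI, both times *Ihh*, and 2 in the comparison of the steps from centre to row >3, *Ihh* and *Pdgfa*, where 2612, 692 and 620 of 26717 genes were called in these 3 comparisons.

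Across the 18 libraries, as a description over points that share 6 groups and the split of SI replicate 3, the log2 CPM of *Pdgfa* and *Wnt3* went together (Pearson's r = 0.73) and both went against *Ihh* (-0.80 and -0.67) and *Shh* (-0.74 and -0.70). *Ihh* and *Shh* had an r of 0.65, and *Vegfa* had values between -0.29 and 0.32 with the other 4. Of 10223 genes, the 3 most like *Ihh* were *Gsdmc4*, *Prkaa2* and 1810065E05Rik, with r between 0.980 and 0.982. Those most like *Pdgfa* were *Pdxk* (0.946), *Hspg2* (0.939) and *Slc14a1* (0.894), and those most like *Wnt3* were *Zfp512*, *Epsti1* and *Prodh* (0.873 to 0.887). For *Shh* they were *Ddx28*, *Pcdh17* and *Ros1* (0.895 to 0.909), and for *Vegfa* *Tle3*, *Syne2* and *Chd7* (0.859 to 0.909). *Wnt6* and *Wnt11* were under 1 CPM on average and were not searched.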

How the data were processed

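Per the labels and the study's methods, the authors sorted live EPCAM+ cells by GFP, made stranded low-input RNA-seq libraries, trimmed the reads, aligned them to mm10 with STAR and deposited raw counts per gene. No source used here gives the release of the gene annotation or the strand setting of the counting. The authors also deposited normalised counts (unit signal), which equal each count divided by 1 size factor per library, and these are the levels printed here. Depth was 8312093 to 31940965 counts per library, with a median of 21934851.

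The 26717 genes with a mean count above 0 were fitted in 1 model of 6 groups with TMM factors, edgeR 4.0.16 (glmQLFit, robust, and glmQLFTest) and Benjamini-Hochberg adjustment, in R 4.3.3. SE is the log2 fold change divided by the root of F. On simulated counts the script called 78% and 72% of genes changed by 2 and -2 on the log2 scale, and 38% and 20% of those changed by 1 and -1, in the SI centre over LI centre comparison. The study itself used DESeq2. Alternatives were DESeq2 1.42.0, RLE factors, library size only, edgeR's filterByExpr, a replicate block within site or over all libraries, the fit without the SI libraries of replicate 3, and leaving out each of 18 libraries. A gene in 1 comparison has 12 of these and in a comparison of steps 18. It has 1 fewer where DESeq2 gave no adjusted p, as for *Ihh*, and 1 fewer where filterByExpr dropped it. Of the 7 members filterByExpr kept 6, all but *Wnt11*.

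The members and gene lists were chosen with earlier results of these data known. Of each list, up to 4 called genes with the smallest adjusted p were named per comparison, or up to 2 with the highest level where none was called. *Boc*, *Pdgfd*, *Nrp2* and the list genes at or near 0 were named after their values were seen. The 3 genes most like a member (Pearson's r of log2 CPM with a prior count of 2, among 10223 genes with a mean of at least 5 CPM) carry no test. Deviations from the group means of same-numbered libraries correlated across genes within a site. The values were 0.358 to 0.783 between levels of the SI and 0.444 to 0.684 in the LI. Numbers were therefore taken to pair libraries within a site, although in the SI the shift of replicate 3 at all 3 levels can raise these values. Between the sites they were 0.184 to 0.271 for border, 0.0196 to 0.314 for centre and -0.0296 to 0.332 for row >3 cells. These do not settle a pairing between the sites, which the block over all libraries assumes. Promoters are from RefSeq (GRCm38.p6), and gene positions from the GENCODE M21 annotation of GRCm38, which holds 42462 of the 43346 gene identifiers.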

Additional observations from a re-analysis of the deposited data

Results flagged for a closer look

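The difference between the sites in the step of *Pdgfa* from centre to row >3 was -3.11 on the log2 scale (SE 0.73, unadjusted p = 0.000791 in edgeR's quasi-likelihood test). It was lower in row >3 than in centre cells in 3 of 3 SI replicates and higher in 3 of 3 LI replicates. The adjusted p was 0.218 over all libraries. It was under 0.05 in 4 of 18 alternatives and in 1 of the 12 that left out a single library, where it went up to 0.727. In these 4 it was 0.00202 in DESeq2, 0.0227 with the replicate block within site, 0.0380 without SI centre replicate 3 and 7.16e-06 without the 3 SI libraries of replicate 3.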

How the results depend on the processing

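The calls of *Pdgfa* between SI and LI centre cells and from SI centre to row >3 held in 12 of 12 alternatives each. Without the 3 SI libraries of replicate 3, members called went from 2 to 4 between centre, 0 to 4 between border and 0 to 2 between row >3 cells of the sites, from 0 to 1 (centre to border), 1 to 2 (centre to row >3) and 0 to 2 (border to row >3) in the SI, from 0 to 1 from LI centre to row >3, and from 0 to 2 in the comparison of the steps from centre to row >3. With the replicate block, 2 were called between border cells, 4 from SI centre to row >3, 1 from SI border to row >3, 1 from LI centre to row >3 and 2 in the comparison of the steps. DESeq2 called 2 members between border cells and 1 in the comparison of the steps, filterByExpr called 2 between border cells, and library size scaling called 2 from SI centre to row >3. Over all genes, filterByExpr called 682 of 15998 between border cells, and library size scaling 3332 of 26717 from SI centre to row >3. Leaving out single libraries gave 1 to 3 members between centre and 0 to 2 between border cells, 0 between row >3 cells, 0 from SI centre to border, 1 to 2 from SI centre to row >3, 0 to 1 from SI border to row >3, 0 from LI centre to row >3 and 0 to 1 in the comparison of the steps. Signs reversed for *Vegfa*, whose value near 0 between centre cells became 0.038 with DESeq2 and with RLE factors, 0.0076 with filterByExpr and 0.0051 with the block, and ranged with single libraries left out from -0.090 to 0.13 (centre), -0.43 to 0.091 (border) and -0.49 to 0.0027 (row >3). *Ihh* from SI border to row >3 ranged from -0.084, without SI row >3 replicate 3, to 2.21. *Shh*, at -0.23 from SI centre to border and -2.21 to row >3, and at -0.71 for this last step in the SI against the LI, over all libraries, turned positive without the SI libraries of replicate 3, where both remaining centre libraries had no count, and it was called in neither fit. The cause of these changes was not tested. Over all genes, calls between centre, border and row >3 cells of the sites were 532, 470 and 1092, against 1229, 1212 and 1682 with DESeq2, 1499, 1142 and 1840 with the block and 2854, 2122 and 3184 without the SI libraries of replicate 3. Calls from centre to border, centre to row >3 and border to row >3 were 3, 3518 and 431 in the SI and 0, 5 and 0 in the LI, and 0 and 0 in the comparisons of the steps. DESeq2 gave 209, 4177, 1300, 0, 82, 0, 2 and 151 in the same order, the block 620, 6103, 2612, 0, 692, 18, 0 and 620, and the fit without the SI libraries of replicate 3 gave 252, 4465, 1891, 1, 497, 21, 42 and 857. With single libraries left out, calls between the sites ranged from 180 to 1230 (centre), 134 to 863 (border) and 379 to 1686 (row >3). In the SI they ranged from 0 to 319 (centre to border), 1971 to 3780 (centre to row >3) and 3 to 1522 (border to row >3). From LI centre to row >3 they ranged from 0 to 3, and in the comparison of the steps from centre to row >3 from 0 to 231. *Wnt6* and *Wnt11* rest on at most 27 counts in any group, which limits what their differences can show.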
